A study of Bos taurus with 30 samples.

Results

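Between T1 and T2, gene expression in samples labelled lymphocytes changed differently in cattle given prednisolone and in control cattle. Osteopontin (SPP1), the chemokines CCL2 and CXCL5, thrombospondin 1 (THBS1), the endotoxin co-receptor CD14 and the homing receptor CXCR4 fell in treated animals against controls. The pattern receptors TLR5 and TLR7, the cytokine IL15 and the immediate early genes FOS, EGR1 and JUN rose against controls. For SPP1, CCL2, CXCL5, CD14 and CXCR4 the treated mean was above the control mean at T1 and below it at T2. For TLR5 and IL15 the order was the opposite. These differences passed an unadjusted threshold at each time, and only those of IL15 passed the adjusted threshold at both. Levels of single animals could still overlap between the groups, as for CXCL5 and CD14 at T1. For THBS1, TLR7, FOS, EGR1 and JUN the T1 difference did not pass. All 30 arrays of the study entered, and each of 15 animals contributed its T2 minus T1 difference in log2 intensity, which was compared between 8 prednisolone and 7 control animals over 2373 named genes.

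RNA was hybridised with Cyanine 3 to 1-colour Agilent bovine oligonucleotide arrays. The groups were prednisolone at T1 and at T2 (8 arrays each, animals 25 to 32) and control at T1 and at T2 (7 arrays each, animals 17, 18 and 20 to 24), 1 animal per array. The labels give prednisolone at 30 mg per head and day, by mouth, for 35 days, and both samplings are recorded as slaughterhouse collections. They do not state where T1 and T2 lie relative to dosing, so neither is called a baseline here, and they give neither breed nor age. Treated and control animals differ in their treatment label and in nothing else that the labels record.

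Prednisolone is a synthetic glucocorticoid. It binds the glucocorticoid receptor, which moves to the nucleus, activates some genes directly and restrains others that depend on NF-kB and AP-1. Glucocorticoids are known to redistribute leukocytes between blood and tissues and to lower the output of inflammatory cytokines and chemokines. A treatment by time interaction is the change of the treated animals minus the change of the controls. It is positive where a gene rose more, or fell less, in treated animals, and it is blind to any treatment difference that was the same at both times.

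The arrays carried 34506 to 38801 features with a value, and the medians over features complete on all arrays lay between 996.7 and 1040 intensity units. The lymphocyte markers CD2, CD3D, CD3E, CD3G, CD8A and CD79A were measured, and their mean level per array lay between 11.5 and 12.54 log2 units over the 4 groups, far above the lower limit of 1.33. CD4, CD79B and MS4A1 were not analysed here. Monocyte markers were measured too, and their values stand beside the results they move with. Mean levels over the 4 groups were 17.09 to 17.23 log2 units for S100A12, a neutrophil marker. For HBB, an erythroid marker, they were 16.57 to 17.38. Which cells supplied each transcript was not tested. In such bulk samples, fewer cells of a type and less RNA per cell cannot be told apart.

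The interaction passed an adjusted p of 0.05 in 621 of 2373 genes (26.2% of those tested), 334 higher (14.1%) and 287 lower (12.1%) in treated animals. It exceeded 2-fold as well in 102 genes (4.3%), 49 higher (2.06%) and 53 lower (2.23%). At an unadjusted p under 0.05 it was 929 genes (39.1%). The changes of the 8 treated and the 7 control animals did not overlap in 139 genes (5.86%), and these 139 passed. Over all genes tested the median interaction was 0.003 and the median size of the interaction 0.277 log2 units. The treated animals carried most of the movement. T2 differed from T1 in 1112 genes in prednisolone animals (46.9%), of which 647 were higher (27.3%) and 465 lower (19.6%), and in 12 genes in control animals (0.506%; 398 genes, or 16.8%, at an unadjusted p under 0.05). The median size of the change was 0.278 log2 units in prednisolone and 0.122 in control animals. Among the 621 genes, the treated animals' change was the larger in 561 (90.3%).

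Single animals differed in how far they followed their group. On the first principal component of the changes, which held 35.9% of the variance of 2181 complete genes, prednisolone animals scored 1.39 to 22.27 and control animals −22.35 to −4.48. Animals 28 and 32, at 20.62 and 22.27, stood furthest out among the treated, and animal 26 lay nearest to the controls. When an animal was left out of the fit and its change was then set against the genes called without it, between 54.9% (animal 26) and 93% (animal 28) of those genes fell on the treated side in prednisolone animals, with a median of 82.2%. In control animals between 68.2% and 91.3% fell on the control side, with a median of 77%. The sides were divided at the midpoint between the group means, so an even split would show no lean to either group. Without animals 28 and 32 the interaction passed in 389 genes, 222 higher and 167 lower, of which 378 were among the 621.

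Treatment differences at the 2 times pointed in opposite directions for many genes. At T1, 8 genes differed between prednisolone and control animals at the adjusted threshold (0.337%) and 521 at an unadjusted p under 0.05 (22%). At T2, 449 genes (18.9%) and 714 genes (30.1%) did so. A gene was called reversed where the interaction passed and the treatment difference had opposite signs at T1 and T2, each at an unadjusted p under 0.05. This held for 104 genes (4.38% of those tested), 49 lower at T1 and higher at T2 (2.06%), and 55 higher at T1 and lower at T2 (2.32%). The same sign at both times, at the same unadjusted threshold, was found in 50 genes (2.11%). Both treatment differences passed the adjusted threshold in 2 of the reversed genes, IL15 and UBE2D1 (0.0843%). That number depended on single animals. It was 0 without any of animals 18, 21, 22, 23, 28, 30, 31 or 32, 1 without 24 or 27, and 14 without 17, 11 without 26, 8 without 29, 7 without 25 and 6 without 20.

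Opposite signs are in part built into genes selected by an interaction, since the interaction is the T2 difference minus the T1 difference. Opposite signs of any size were present in 547 of the 621 genes (88.1%) and in 1311 of all 2373 (55.2%). The treatment difference was significant by the unadjusted threshold at T2 alone in 285 of the 621 genes (45.9%), at T1 alone in 170 (27.4%), at both times with opposite signs in 104 (16.7%), at both times with the same sign in 2 and at neither time in 60. Across all genes the T1 and T2 differences had a Pearson correlation of −0.253, given as a description, since genes are not independent and the same animals supplied both. The number of reversed genes was 50 without animals 28 and 32, of which 47 were among the 104. No other pair was left out, and fewer animals also lower the power. Without 1 animal the number was 84 (animal 28), 77 (animal 32) and 78 (control animal 18).

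**Figure D1:**
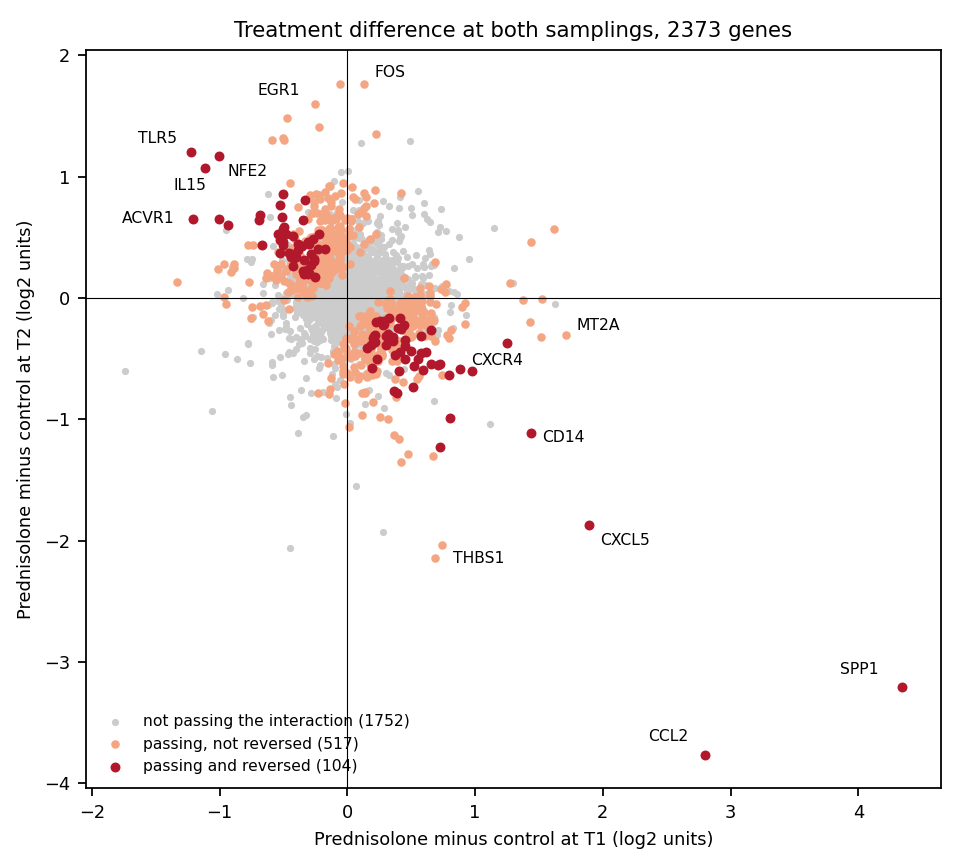
Each point is 1 of 2373 genes, with the prednisolone minus control difference in log2 units at T1 on the horizontal axis and at T2 on the vertical axis; dark red points are the 104 reversed genes, light points the 517 others that passed the interaction, and grey points the 1752 that did not. Reversed genes occupy the upper left (49) and lower right (55) quadrants, with SPP1 at 4.34 and −3.21 and TLR5 at −1.22 and 1.21.

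The largest fall in treated animals belonged to SPP1, a secreted matrix protein and cytokine made by macrophages and activated lymphocytes. Its change had a lowest, median and highest value of −10.28, −7.89 and −4.48 log2 units in the 6 prednisolone animals measured at both times, against −2.58, 0.60 and 2.37 in 6 control animals. The groups did not overlap, and the interaction was −7.82 (SE 1.02, adjusted p 0.000328). At T1 the level had been higher in treated animals, with a difference of 4.34 (SE 0.90), and at T2 it was lower, with a difference of −3.21 (SE 0.83). In prednisolone animals SPP1 lay between 5.12 and 12.65 log2 units at T1 and between 1.33 and 2.37 at T2, where the range reached the lower limit of measurement. The size of the change therefore depends on that limit, and it was −5.13 when all intensities under 16 were raised to 16.

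Of the chemokines among the largest changes, CCL2 and CXCL5 fell and GRO1 rose against controls. CCL2, the main monocyte attractant, changed by −11.22 to −4.25 log2 units (median −6.82) in 5 prednisolone animals and by −3.86 to 2.60 (median −1.08) in 7 control animals. No overlap was seen, and the interaction was −6.98 (SE 1.45, adjusted p 0.0046). Treated animals 25, 26 and 30 had no CCL2 value at T2, and the other 5 lay between 3.01 and 7.40 log2 units there. Over the alternatives other than leaving out 1 animal, the interaction lay between −7.01 and −4.89. CCL2 was reversed, with treatment differences of 2.80 (SE 0.96) at T1 and −3.76 (SE 0.88) at T2. CXCL5, a neutrophil attractant, changed by −5.69 to −1.10 (median −3.82) in 8 prednisolone animals and by −2.17 to 1.92 (median 0.50) in 7 control animals. Its groups overlapped slightly, the interaction was −3.76 (SE 0.69, adjusted p 0.0014), and the treatment difference was 1.89 at T1 and −1.87 at T2. GRO1, another CXC chemokine, changed by −0.62 to 1.83 (median 0.42) in treated animals, while in controls it changed by −2.73 to 0.01 (median −1.26), which gave an interaction of 1.82 (SE 0.42, adjusted p 0.0063). The call of GRO1 was lost, at an adjusted p of 0.0541, when the animal was not used as a block.

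CD14, which presents bacterial lipopolysaccharide to TLR4 on monocytes and macrophages, fell in treated animals. The change had a lowest, median and highest value of −3.59, −2.68 and −0.75 log2 units in prednisolone animals and −1.05, −0.03 and 1.69 in control animals. The interaction was −2.55 (SE 0.44, adjusted p 0.000874), although the least changed treated animal lay within the control range. CD14 lay between 13.33 and 15.61 log2 units in prednisolone animals at T1, against 12.06 to 13.40 in control animals, and between 10.98 and 12.91 at T2 in prednisolone animals, against 12.02 to 13.77 in control animals. CD86, a costimulatory ligand of antigen-presenting cells, also reversed, with treatment differences of 0.80 at T1 and −0.63 at T2 and an interaction of −1.43 (SE 0.37, adjusted p 0.0118).

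Of 18 monocyte markers 6 were tested, and 3 fell in treated animals against controls (SPP1, CD14 and CD86), with none higher at the adjusted threshold (12.1% of all genes were lower and 14.1% higher). The median interaction of the 6 was −0.926, against 0.003 over all genes tested. ITGAM, LGMN and MSR1 did not pass. SPP1 and ITGAM lacked a value on some arrays. The mean level of the other 4 (CD14, CD86, LGMN and MSR1) had a lowest, median and highest value of 11.01, 11.53 and 12.67 log2 units in prednisolone animals at T1 and 10.28, 10.47 and 11.17 at T2. In control animals the values were 10.33, 10.88 and 11.39 at T1 and 10.60, 10.95 and 11.11 at T2. By the median the treated animals were above the controls at T1 and below them at T2, and the ranges overlapped at both times. The part of monocyte content in the other results was not tested. Among 9 neutrophil markers tested, none passed, and their median interaction was −0.222.

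**Figure D2:**
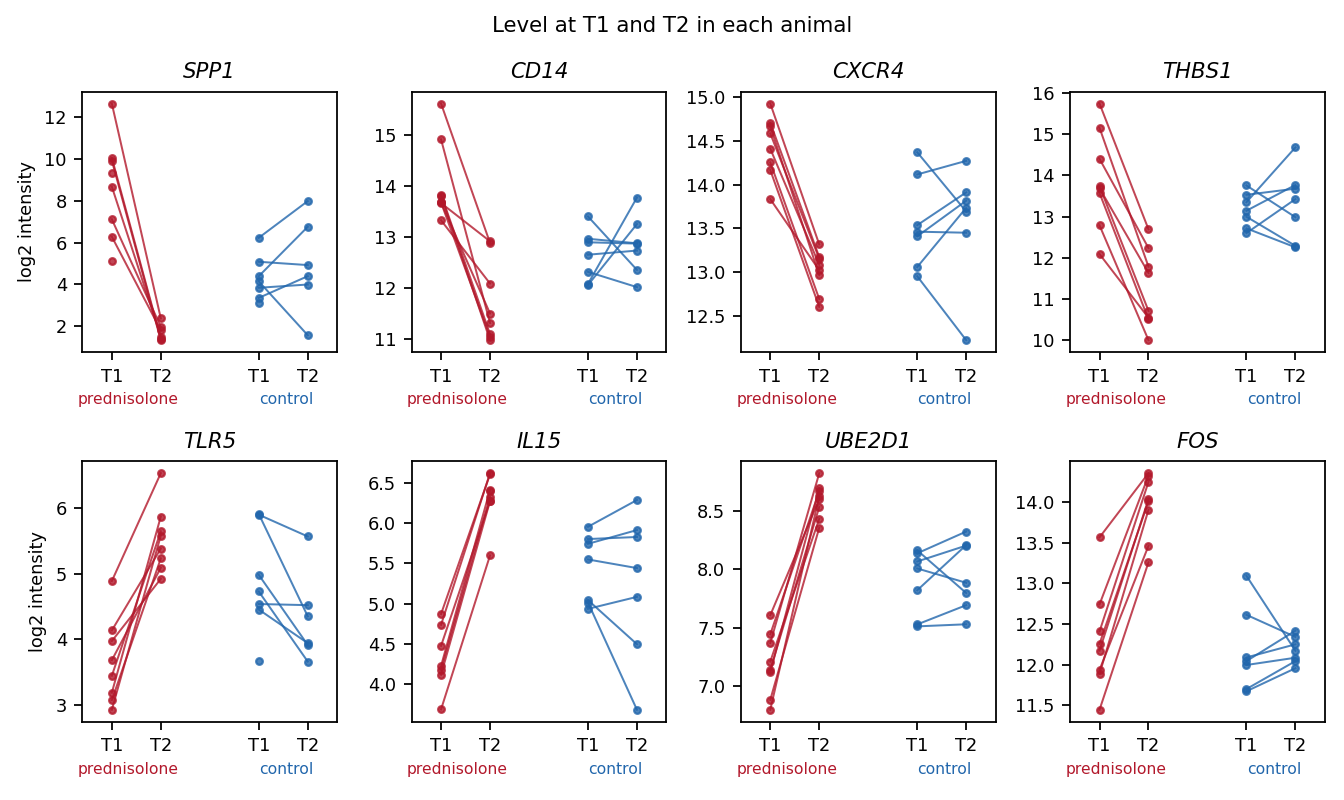
Each line joins the T1 and T2 level of 1 animal in log2 intensity, for prednisolone animals in red and control animals in blue, and a point without a line is an animal measured at 1 time. SPP1, CD14, CXCR4 and THBS1 fell and TLR5, IL15, UBE2D1 and FOS rose in every prednisolone animal measured at both times, while control animals moved in either direction except for TLR5, which fell in all 6 of them.

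In a list of extracellular matrix and matricellular genes, the members that passed went in one direction. Of 11 genes tested 7 were lower in treated animals (THBS1, SPP1, FN1, TIMP1, TIMP2, TNFAIP6 and DCN) and none was higher at the adjusted threshold (63.6% lower, against 12.1% over all genes), with a median interaction of −0.967. The list's median treatment difference was 0.47 at T1 and −0.314 at T2. Matrix genes outside the list passed in both directions, with BGN and ECM2 higher and CHAD and ADAMTS5 lower. THBS1, a matricellular protein of platelets and monocytes, changed by −3.37 to −1.55 log2 units (median −2.91) in prednisolone and by −0.77 to 1.33 (median 0.15) in control animals. Treated and control ranges were separate, and the interaction was −2.78 (SE 0.34, adjusted p 0.000156). TIMP1, an inhibitor of matrix metalloproteinases, changed by −3.09 to −0.62 in prednisolone and by −0.44 to 0.92 in control animals. It was reversed, with treatment differences of 0.98 at T1 and −0.60 at T2, and its interaction of −1.58 (SE 0.38, adjusted p 0.0073) was −1.05 without animals 28 and 32. Fibronectin (FN1) had an interaction of −1.20 (SE 0.25, adjusted p 0.0031), which did not pass without the animal as a block (adjusted p 0.0753).

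TNFAIP6, a hyaluronan-binding protein made during inflammation, was dim. Its interaction was −1.97 (SE 0.66, adjusted p 0.0383), treated animal 28 changed by −5.04, and the call was lost without any of 7 single animals (17, 18, 21, 22, 27, 30 or 31), at an adjusted p of 0.0568 to 0.0772 and an interaction of −1.99 to −1.77. THBS1 was also the member that passed among 4 platelet markers tested (25% called, against 26.2% over all genes). ITGA2B, ITGB3 and SELP did not pass, and the median interaction of the 4 was 0.192. The urokinase receptor PLAUR, which guides cell-surface proteolysis, changed by −2.49 to −0.91 (median −1.71) in prednisolone and by −0.84 to 1.29 (median 0.10) in control animals. Its groups did not overlap and it was reversed, with an interaction of −1.95 (SE 0.32, adjusted p 0.000675) and treatment differences of 0.72 at T1 and −1.22 at T2.

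**Figure D3:**
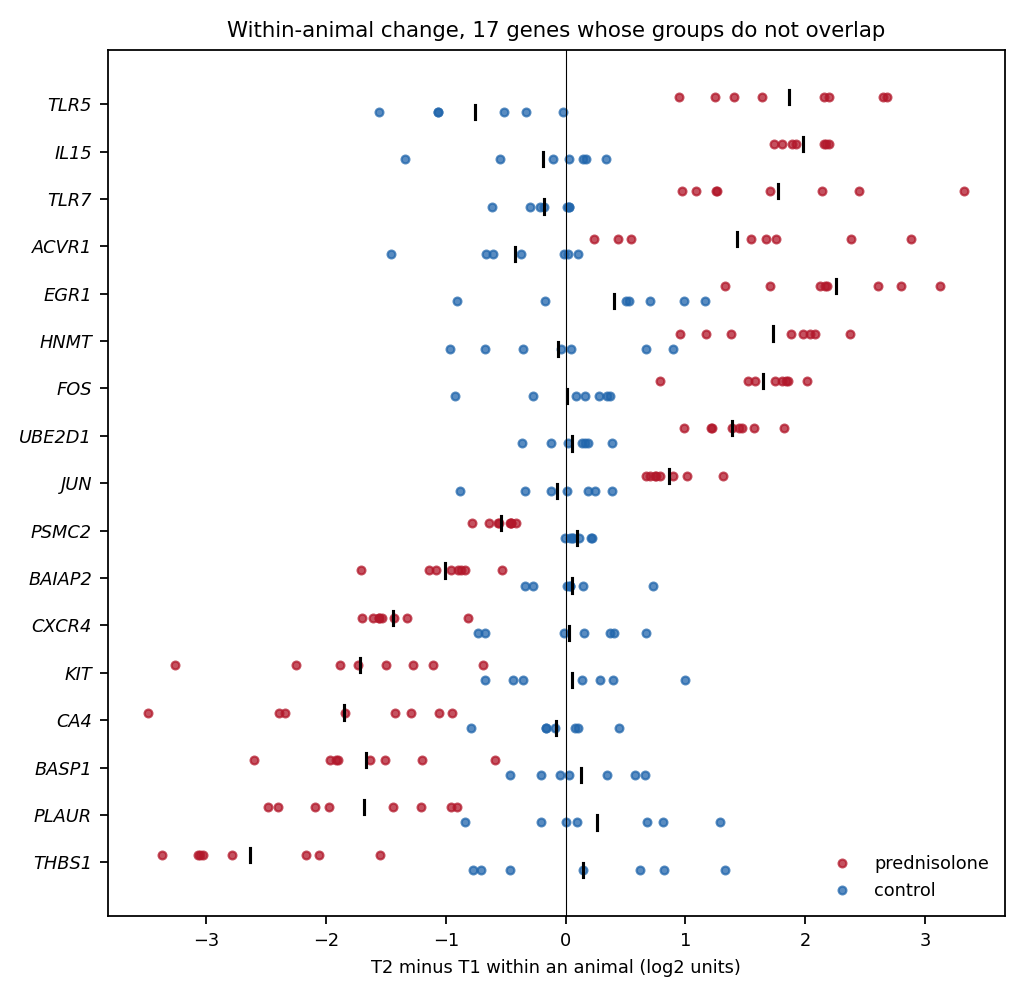
T2 minus T1 in log2 units is shown for each animal in 17 genes whose changes do not overlap between groups, with prednisolone animals in red above control animals in blue and a black tick at each group's mean. Changes in prednisolone animals lie right of those in control animals for TLR5 to JUN and left of them for PSMC2 to THBS1.

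Pattern recognition receptors moved in both directions. Of 14 tested, TLR5, TLR7, TLR3 and MYD88 were higher and CD14 and TIRAP lower in treated animals (42.9% called, against 26.2% over all genes), and the median interaction was 0.22. TLR5, the receptor for bacterial flagellin, changed by 0.95, 1.90 and 2.68 log2 units (lowest, median, highest) in 8 prednisolone animals, against −1.56, −0.79 and −0.02 in 6 control animals. Every treated animal rose and every control animal fell, and the interaction was 2.63 (SE 0.31, adjusted p 0.000156), or 6.18-fold. TLR5 was dim, between 2.93 and 4.89 at T1 and 4.92 and 6.53 at T2 in prednisolone animals, against 3.67 to 5.91 at T1 and 3.66 to 5.57 at T2 in control animals. Its treatment difference was −1.22 (SE 0.35) at T1 and 1.21 (SE 0.29) at T2, and the gene was reversed. TLR7, an endosomal receptor for single-stranded RNA, changed by 0.97 to 3.33 (median 1.49) in prednisolone and by −0.61 to 0.03 (median −0.18) in control animals.

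The groups did not overlap for TLR7, whose interaction was 1.95 (SE 0.30, adjusted p 0.000475). It was not reversed: the treatment difference was −0.47 (adjusted p 0.447) at T1 and 1.48 (adjusted p 0.0016) at T2. TIRAP, the adaptor that brings MyD88 to TLR2 and TLR4, was reversed downward, with differences of 0.50 at T1 and −0.44 at T2 and an interaction of −0.93 (SE 0.17, adjusted p 0.0014). IKBKG, the regulatory subunit of the IkB kinase that releases NF-kB, was reversed upward. Its change was 0.28 to 0.92 (median 0.60) in prednisolone and −0.14 to 0.11 (median −0.08) in control animals, with no overlap and an interaction of 0.64 (SE 0.09, adjusted p 0.000342). Of 7 genes of the NF-kB pathway tested, IKBKG and NFKBIZ passed, both higher (28.6% called, close to the 26.2% over all genes). NFKBIZ, a nuclear IkB protein, had an interaction of 0.42 (adjusted p 0.0428), which did not pass without any of 10 single animals (18, 20, 21, 23, 24, 26, 27, 29, 31 or 32), at 0.36 to 0.43.

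Cytokine genes also split. IL15, which sustains natural killer and memory T cells, changed by 1.74, 1.92 and 2.20 log2 units (lowest, median, highest) in 7 prednisolone animals, against −1.34, 0.03 and 0.33 in 7 control animals. The lowest treated animal lay well above the highest control animal, and the interaction was 2.17 (SE 0.22, adjusted p 5.81e-05), or 4.51-fold. IL15 was lower in treated animals at T1, by −1.11 (SE 0.21, adjusted p 0.04), and higher at T2, by 1.07 (SE 0.32, adjusted p 0.0286). IFNG is a macrophage-activating cytokine made by T and natural killer cells. It changed by −0.10 to 1.20 (median 0.70) in prednisolone and by −1.18 to −0.02 (median −0.27) in control animals. Its interaction was 0.98 (SE 0.23, adjusted p 0.0064), with treatment differences of −0.97 at T1 and 0.01 at T2. The IFNG call was lost without the animal as a block (adjusted p 0.203) and also with the animal as a random block. IL1RN, the natural antagonist of interleukin 1 receptors, fell with an interaction of −1.63 (SE 0.38, adjusted p 0.0068), its treatment difference being 1.43 at T1 and −0.20 at T2.

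Among 17 tested genes listed as glucocorticoid-repressed, mostly cytokines and chemokines, IL15 and IFNG were thus higher and CCL2 lower, and the remaining members did not pass (17.6% called, against 26.2% over all genes). The median interaction of the list was −0.258, and its median treatment difference was −0.322 at T1 and −0.648 at T2. Glucocorticoid-induced genes split likewise. Of 8 tested, ANXA1 was higher and CXCR4, SLA and ZBTB16 were lower (50% called, against 26.2% over all genes), with a median of −0.114. The glucocorticoid receptor gene NR3C1 changed by −0.55, 0.12 and 0.34 (lowest, median, highest) in prednisolone and by −0.59, −0.40 and 0.23 in control animals, and its interaction of 0.35 (SE 0.15, adjusted p 0.0836) did not pass. TSC22D3, FKBP5, PER1, DUSP1 and KLF9, which respond to glucocorticoids in many tissues, were not analysed here.

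CXCR4, the receptor for CXCL12 that retains lymphocytes in bone marrow and lymphoid tissue, changed by −1.70, −1.55 and −0.81 log2 units (lowest, median, highest) in prednisolone and by −0.73, 0.16 and 0.68 in control animals. Treated animals all lay below controls, and the interaction was −1.47 (SE 0.21, adjusted p 0.000264). CXCR4 was reversed, with treatment differences of 0.88 (SE 0.21) at T1 and −0.58 (SE 0.23) at T2. Its features differed in size of change, and the interaction was −4.01 when all features of the gene were averaged. ANXA1, an anti-inflammatory phospholipid-binding protein, had an interaction of 0.62 (SE 0.18, adjusted p 0.0208). The ANXA1 call was lost without the animal as a block (adjusted p 0.336), with the animal as a random block, and without animals 28 and 32. ZBTB16, a transcription factor of innate-like T cells, changed by −1.09 to −0.29 (median −0.70) in prednisolone and by −1.0 to 1.11 (median 0.29) in control animals. Its interaction of −0.83 (SE 0.27, adjusted p 0.0341) was lost without any of 8 single animals (17, 18, 20, 21, 25, 28, 31 or 32), at −0.82 to −0.67.

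Trafficking genes passed in both directions, 6 of 12 tested (50%, against 26.2% over all genes). CXCR4, CCR7, CXCR5 and S1PR1, which drives egress from lymphoid tissue, were lower, and the integrins ITGB1 and ITGAL higher, with a median interaction of −0.073. CCR7, which guides naive T cells into lymph nodes, changed by −1.88 to −0.35 (median −1.38) in prednisolone and by −0.49 to 0.14 (median −0.21) in control animals. The groups overlapped slightly, and the interaction was −1.13 (SE 0.18, adjusted p 0.000628). The treatment difference of CCR7 was 0.44 at T1 and −0.69 at T2 (adjusted p 0.0037). CXCR5, the follicle-homing receptor of B cells, was reversed, with an interaction of −1.08 (SE 0.23, adjusted p 0.0036) and differences of 0.52 at T1 and −0.56 at T2. ITGB1, the shared beta chain of several matrix receptors, had an interaction of 0.37 (SE 0.10, adjusted p 0.018), which did not pass without animals 28 and 32 (adjusted p 0.0624).

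Of 9 T cell markers tested, CD8A was higher and CCR7 lower in treated animals (22.2% called, against 26.2% over all genes), and the median interaction was 0.13. The mean level of the 9 was 11.44 to 11.71 log2 units at T1 and 11.49 to 11.90 at T2 in prednisolone animals, and 11.11 to 11.95 at T1 and 11.42 to 11.82 at T2 in control animals, with overlap throughout. Of 8 T cell activation genes, ICOS, IL2RA and CTLA4 were lower and IFNG higher (50% called), with a median of −0.113. ICOS, a costimulatory receptor, changed by −1.73 to −0.40 (median −0.91) in prednisolone and by −0.38 to 0.12 (median −0.15) in control animals, without overlap, and its interaction was −0.91 (SE 0.17, adjusted p 0.0016). IL2RA, the high-affinity chain of the interleukin 2 receptor, had an interaction of −0.69 (adjusted p 0.0326) and CTLA4, an inhibitory receptor, one of −0.54 (adjusted p 0.0343).

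Calls of CD8A, IL2RA and CTLA4 lay near the threshold and were lost without any 1 of several animals of both groups. For CD8A, with an interaction of 0.50 (adjusted p 0.0353), the call was lost without any of 9 animals (17, 18, 21, 23, 24, 27, 28, 29 or 30), at 0.40 to 0.51. For IL2RA it was lost without any of 7 (20, 21, 22, 24, 26, 27 or 28), at −0.68 to −0.57, and for CTLA4 without any of 8 (20, 21, 24, 25, 26, 28, 30 or 32), at −0.54 to −0.43. Of 6 B cell markers tested, CXCR5 and XBP1, a transcription factor of plasma cells and the unfolded protein response, were lower (33.3%, against 12.1% lower over all genes), with a list median of −0.226. XBP1 had an interaction of −0.49 (SE 0.12, adjusted p 0.0092). Of 9 natural killer and cytotoxic genes (11.1% called, against 26.2% over all genes), the activating receptor NCR1 was higher. Its interaction was 0.90 (SE 0.26, adjusted p 0.0206), which was not significant without the animal as a block (adjusted p 0.0932).

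Immediate early genes, which are transcribed within minutes of a stimulus, rose in treated animals. Of 4 tested, FOS, EGR1 and JUN passed and were higher (75%, against 14.1% higher over all genes), with a median interaction of 1.286 over the list. FOS, a subunit of AP-1, changed by 0.79, 1.78 and 2.01 log2 units (lowest, median, highest) in prednisolone and by −0.92, 0.16 and 0.37 in control animals. Treated animals all lay above controls, and the interaction was 1.64 (SE 0.21, adjusted p 0.000156). At T1 the FOS level overlapped between groups, and the difference was 0.13 (adjusted p 0.813). At T2 FOS lay between 13.26 and 14.35 in prednisolone animals and between 11.96 and 12.42 in control animals, a difference of 1.77 (SE 0.16, adjusted p 1.54e-05).

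EGR1, a zinc finger transcription factor, changed by 1.34 to 3.13 (median 2.17) in prednisolone and by −0.90 to 1.17 (median 0.53) in control animals. It had an interaction of 1.85 (SE 0.31, adjusted p 0.000745) and treatment differences of −0.25 at T1 and 1.60 at T2. JUN, the partner of FOS in AP-1, changed by 0.67 to 1.32 (median 0.77) in prednisolone and by −0.88 to 0.39 (median 0.01) in control animals. Its interaction was 0.93 (SE 0.17, adjusted p 0.0013), and the difference was −0.09 at T1 and 0.84 (SE 0.09, adjusted p 5.32e-05) at T2. None of the 3 was reversed, since the T1 difference did not pass for any of them.

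Interferon response genes and genes of MHC class II presentation passed at shares near that over all genes (26.2%), 2 of 10 (20%) and 2 of 9 (22.2%). In the interferon list, EIF2AK2, the kinase activated by double-stranded RNA, and the transcription factor IRF1 were higher, with a list median of 0.1. EIF2AK2 had an interaction of 0.93 (SE 0.26, adjusted p 0.0179), which did not pass with each gene's brightest feature alone or without the animal as a block. IRF1 had 0.76 (SE 0.25, adjusted p 0.0351), lost without any of 7 animals (17, 18, 21, 24, 25, 31 or 32), at 0.68 to 0.75. In the MHC class II list, BOLA-DMB was higher (0.54, adjusted p 0.0296) and BOLA-DYB lower (−0.50, adjusted p 0.0385). The BOLA-DMB call was lost without any of 5 animals (20, 21, 22, 28 or 32), at 0.45 to 0.51, and the BOLA-DYB call without any of 8 (20, 21, 22, 24, 25, 27, 28 or 30), at −0.52 to −0.41.

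The ubiquitin and proteasome list passed at a share near the background, 8 of 27 genes (29.6%), 4 in each direction, and held some of the clearest reversals. UBE2D1, a ubiquitin-conjugating enzyme, changed by 0.99, 1.42 and 1.82 log2 units (lowest, median, highest) in prednisolone and by −0.36, 0.14 and 0.39 in control animals. Both ranges were apart, and the interaction was 1.33 (SE 0.13, adjusted p 5.65e-05). UBE2D1 lay between 6.80 and 7.61 at T1 and between 8.35 and 8.82 at T2 in prednisolone animals, against 7.51 to 8.16 at T1 and 7.53 to 8.32 at T2 in control animals. At T2 the levels of the groups did not overlap, whereas at T1 the ranges met at their edges. The treatment difference was −0.69 (SE 0.14, adjusted p 0.0464) at T1 and 0.64 (SE 0.12, adjusted p 0.0018) at T2.

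PSMC2, an ATPase subunit of the regulatory particle, reversed in the opposite direction. It changed by −0.78 to −0.41 (median −0.51) in prednisolone and by −0.01 to 0.22 (median 0.06) in control animals, without overlap, and its interaction was −0.64 (SE 0.08, adjusted p 0.000156). Its treatment difference was 0.32 (SE 0.07) at T1 and −0.32 (SE 0.06) at T2. The catalytic subunit PSMB5 was reversed downward too, with an interaction of −0.65 (SE 0.14, adjusted p 0.0046). PSMA2, a structural subunit, was lower at T2 alone, by −0.46 (SE 0.06, adjusted p 9.14e-05), with a difference of 0.07 at T1.

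Other reversed genes came from varied functions. Those lower at T1 and higher at T2 in treated animals included ACVR1, a bone morphogenetic protein receptor, with an interaction of 1.86 (SE 0.38, adjusted p 0.0028) and treatment differences of −1.21 at T1 and 0.65 at T2. NFE2, a transcription factor of erythroid cells and megakaryocytes, had an interaction of 2.17 (SE 0.34, adjusted p 0.000524) and differences of −1.0 at T1 and 1.17 at T2. NFE2 was the member that passed among 6 erythroid markers tested (16.7% called, against 26.2% over all genes). The mean level of the 6 was 11.04 to 12.65 at T1 and 11.93 to 12.93 at T2 in prednisolone animals. In control animals it was 11.39 to 12.67 at T1 and 11.63 to 12.86 at T2. The small GTPase RALA changed by 0.56 to 1.44 in prednisolone and by −0.60 to 0.30 in control animals, with an interaction of 1.18 (SE 0.15, adjusted p 0.000168). RTN3, a membrane-shaping protein of the endoplasmic reticulum, had one of 0.83 (SE 0.14), and MTCH2, an outer mitochondrial membrane protein, one of 0.80 (SE 0.10), both without overlap of the groups.

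Further upward reversals were smaller or less certain. The riboflavin transporter SLC52A2 had an interaction of 0.78 (SE 0.14, adjusted p 0.0014), and the RNA helicase EIF4A2 one of 0.75 (SE 0.15, adjusted p 0.0022). HK1, the hexokinase that begins glycolysis, had 0.57 (SE 0.14, adjusted p 0.009). LTA4H, which completes the synthesis of leukotriene B4, had 0.54 (SE 0.11, adjusted p 0.0038), while the leukotriene B4 receptor LTB4R reversed downward (−1.62, SE 0.33, adjusted p 0.0031) without overlap of the groups. ASPH, an aspartate hydroxylase, had 1.55 (SE 0.33, adjusted p 0.0046) and GNA11, a G protein subunit, 1.53 (SE 0.40, adjusted p 0.0114). The sialyltransferase ST3GAL2 had an interaction of 1.11 (SE 0.17, adjusted p 0.0005), but its features disagreed, and the value was −0.25 (adjusted p 0.564) when all of them were averaged.

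Among genes higher at T1 and lower at T2 in treated animals, BASP1, a membrane-bound signalling protein, changed by −2.60 to −0.59 (median −1.76) in prednisolone and by −0.46 to 0.66 (median 0.03) in control animals. No treated animal lay in the control range, and the interaction was −1.79 (SE 0.25, adjusted p 0.000264). BAIAP2, an actin-remodelling adaptor, changed by −1.71 to −0.53 in prednisolone and by −0.33 to 0.73 in control animals, with an interaction of −1.06 (SE 0.17, adjusted p 0.000631). Smaller downward reversals were those of MLST8, a subunit of both mTOR complexes (−0.86, SE 0.20, adjusted p 0.0068), the oxysterol receptor NR1H2 (−0.67, SE 0.15, adjusted p 0.0055), the transcription cofactor ENY2 (−0.50, SE 0.10, adjusted p 0.0028) and the uncharacterised LOC517971 (−0.67, SE 0.15, adjusted p 0.0058). The cap-binding protein EIF4E had −0.58 (SE 0.09, adjusted p 0.0005), opposite to the helicase EIF4A2 that joins it in the cap-binding complex. The closely related helicase EIF4A1 was lower as EIF4E was, with −0.55 (SE 0.16, adjusted p 0.0186) and treatment differences of −0.23 at T1 and −0.78 at T2, although with all features averaged its value was −0.21 (adjusted p 0.167). Haem oxygenase 1 (HMOX1), which degrades haem, had −1.20 (SE 0.26, adjusted p 0.0043), with treatment differences of 0.66 at T1 and −0.54 at T2.

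Of 18 genes in a list of arginine, histamine and redox metabolism, 5 passed (27.8%), close to the 26.2% over all genes. HNMT, which inactivates histamine, changed by 0.95 to 2.38 (median 1.93) in prednisolone and by −0.96 to 0.90 (median −0.04) in control animals. The groups did not overlap, and the interaction was 1.79 (SE 0.28, adjusted p 0.0005). The histamine receptor HRH1 rose against controls as well, with an interaction of 1.89 (SE 0.47, adjusted p 0.0089), in 7 of 8 treated animals beyond the control mean. In the same list HDC, which synthesises histamine, HMOX1 and the metallothionein MT2A were lower. MT2A had an interaction of −2.01 (SE 0.62, adjusted p 0.0263), which was −1.31 without animals 28 and 32 and was lost without control animal 22 (−1.88, adjusted p 0.0518), with the brightest feature alone and without the animal as a block. It differed at T1, by 1.71 (SE 0.67), more than at T2, by −0.30 (SE 0.34).

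Other large changes concerned single genes. Carbonic anhydrase 4 (CA4) changed by −3.48 to −0.94 (median −1.63) in prednisolone and by −0.79 to 0.44 (median −0.09) in control animals, with an interaction of −1.76 (SE 0.32, adjusted p 0.0014). KIT, the stem cell factor receptor, changed by −3.26 to −0.69 (median −1.62) in prednisolone and by −0.68 to 1.0 (median 0.14) in control animals, with an interaction of −1.76 (SE 0.33, adjusted p 0.0018). Neither gene overlapped between the groups. FBP1, a gluconeogenic phosphatase, had −1.83 (SE 0.40, adjusted p 0.0046), lost without the animal as a block (adjusted p 0.0655), and the uncharacterised LOC511106 had −2.83 (SE 0.80, adjusted p 0.0174), lost without animals 28 and 32 (adjusted p 0.0617). HMMR, a mitotic spindle and hyaluronan-binding protein, changed by 1.09 to 2.06 in 6 prednisolone and by −1.17 to 1.05 in 6 control animals, with an interaction of 1.60 (SE 0.31, adjusted p 0.0031). VLDLR, a lipoprotein receptor measured in 4 animals of each group, had 1.41 (SE 0.33, adjusted p 0.0156), which fell to 0.94 (adjusted p 0.164) without the animal as a block. The VLDLR call was also lost with the animal as a random block.

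Cell cycle genes (20%), heat shock chaperones (18.2%) and apoptosis genes (25%) passed at shares near or under the 26.2% of all genes. Of 15 cell cycle genes tested, HMMR, CDK4 and HMGB2 were higher, and the list median was −0.013. CDK4, the kinase of the G1 phase, had an interaction of 0.33 (adjusted p 0.0423) that was lost without any of 11 animals (20 to 28, 31 or 32), at 0.28 to 0.35. HMGB2, a chromatin protein, had 0.52 (adjusted p 0.0479), lost without any of 12 animals (18, 20 to 25 or 28 to 32), at 0.41 to 0.56. Of 11 heat shock chaperones, HSPA2 (0.76, SE 0.17, adjusted p 0.0046) and HSPB8 were higher, and the HSPA2 call was lost with the brightest feature alone (adjusted p 0.0765). HSPB8, a small heat shock protein, had 1.82 (SE 0.60, adjusted p 0.035), lost without any of 10 animals (18, 21, 22, 24, 25, 27, 28, 29, 31 or 32), at 1.58 to 1.84. Of 8 apoptosis genes, CASP6 was higher (0.42, adjusted p 0.0406, lost without any of 9 animals, 18, 22 to 25, 28 to 30 or 32, at 0.36 to 0.42) and FADD lower (−0.65, SE 0.16, adjusted p 0.0084). The FADD value was −0.36 (adjusted p 0.182) with all features averaged, and its call was also lost without the animal as a block.

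Lists of metabolism and protein synthesis mostly passed at shares at or below the background of 26.2%. Of 72 oxidative phosphorylation genes 8 passed (11.1%), with NDUFS1 higher and COX7C, NDUFA9, NDUFC1, COX6B1, ATP5MG, COX6B2 and NDUFB4 lower, and the list median was 0.003. COX7C, a subunit of cytochrome c oxidase, had an interaction of −0.49 (SE 0.11, adjusted p 0.0042), lost without the animal as a block (adjusted p 0.0606). Of 42 ribosomal protein genes 1 passed (2.4%), RPL27, at −0.96 (SE 0.23, adjusted p 0.0077), whose treatment difference at T1 was 0.92 (SE 0.16, adjusted p 0.0287). Of 20 mitochondrial ribosomal protein genes 5 passed (25%) and of 22 translation factors 5 (22.7%). CPT1B, which admits fatty acids to mitochondria, passed among 8 fatty acid oxidation genes, with no overlap and an interaction of 0.84 (SE 0.13, adjusted p 0.0005). No cholesterol synthesis gene passed among 6 tested.

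Of 11 glycolysis genes 3 passed (27.3%, close to the 26.2% over all genes). Besides HK1, LDHA (−0.46, adjusted p 0.0339) and PGAM1 (−0.34, adjusted p 0.0353) were lower. LDHA lost its call without any of 6 animals (22, 23, 24, 29, 30 or 32), at −0.45 to −0.38, and PGAM1 without any of 9 (17, 21, 22, 24, 26, 27 or 30 to 32), at −0.34 to −0.29. Of 7 housekeeping genes (14.3% called), ACTB was higher (0.43, SE 0.12, adjusted p 0.0183), a call lost without animals 28 and 32 (adjusted p 0.0591). Eicosanoid and annexin genes passed in 4 of 11 cases (36.4%, against 26.2% over all genes). PTGS1, which starts prostaglandin synthesis, was higher (0.67, SE 0.19, adjusted p 0.0164, and 0.0531 with the brightest feature alone) and PTGER4, a receptor for prostaglandin E2, lower (−1.13, SE 0.25, adjusted p 0.0049).

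**Figure D4:**
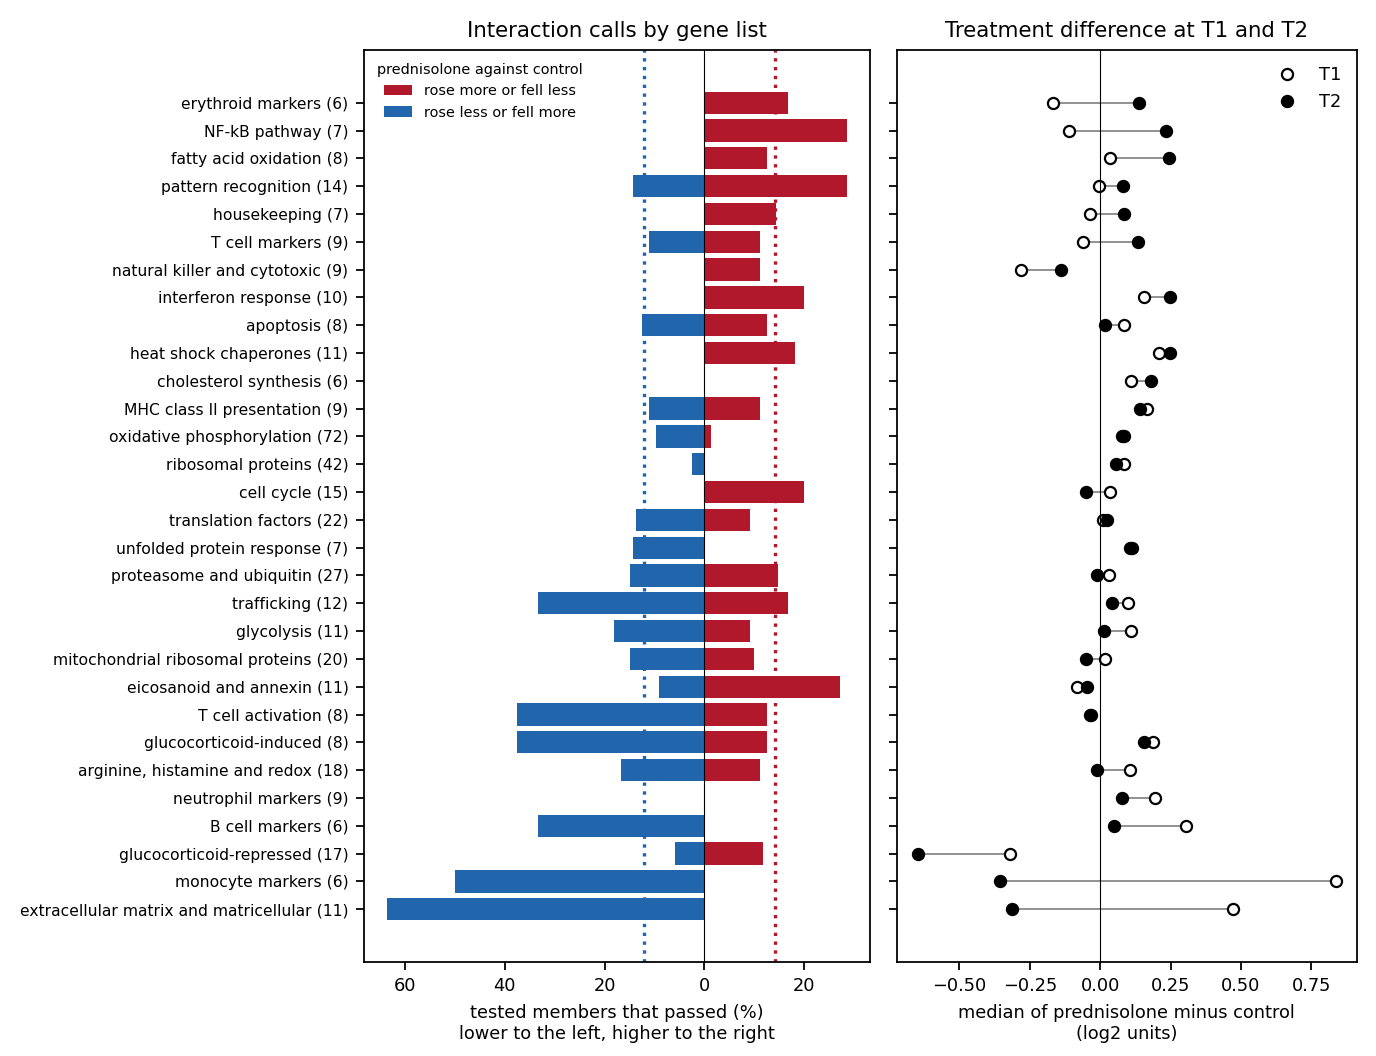
The left panel gives, for each list with its number of tested genes in brackets, the percent that passed the interaction, lower to the left in blue and higher to the right in red, with dotted lines at the 12.1% and 14.1% found over all genes tested. The right panel gives the list's median prednisolone minus control difference in log2 units at T1 (open) and T2 (filled), and in the extracellular matrix list 7 of 11 genes were lower.

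For single genes the ordering of the animals was also tested by an exact two-sided permutation of the treatment labels over the 15 animals, 6435 relabellings where no value was missing. Since the named genes were chosen by the interaction on the same animals, these values describe them and add no support. VLDLR, measured in 4 animals a group whose ranges overlapped slightly, had an exact p of 0.0571. UBE2D1, CXCR4, THBS1, PLAUR, TLR7 and PSMC2 reached 0.000155, the smallest value these relabellings can give. Of the 104 reversed genes 50 had changes that did not overlap between the groups, against 139 of all 2373 genes (5.86%). Reversed genes were selected by the interaction on these same changes, so a larger share without overlap is in part built in. In 59 of the 104 the treatment difference was larger in size at T1 than at T2.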

How the data were processed

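The authors deposited intensities on a linear scale, from 1-colour Agilent arrays, spanning 1.62 to 1067620. Per the series' design text, Feature Extraction 9.5 processed the scans, and per the submitters' processing notes R 2.11.1 was used. Of all cells 17.16% are null. Neither the rule for null cells nor any normalization across arrays is stated (not given in the sources used here). The intensities were scaled to each array's 75th percentile (by at most 0.044 log2 units), floored at 2.51 (percentile 1, log2 1.33) and logged. Of 44407 features, 6954 named 3269 genes, through accessions (5432), current symbols (1358), synonyms (158) or the platform's name (6), and 37453 had no name. Features within 0.25 log2 units of a gene's brightest were averaged. Genes in the dimmest 25%, or with under 4 differences in a group, were left out, which left 2373. A difference was missing in 192 of them (1.33% of differences), and each fit used the animals with a value.

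Each animal's T2 minus T1 was fitted with limma 3.58.1 (lmFit, eBayes) in R 4.3.3. Tests were two-sided, p-values were adjusted over the 2373 genes by Benjamini-Hochberg, and 0.05 was the threshold. Treatment was fitted at T1 and at T2 separately. Differences are prednisolone minus control in log2 units with limma's standard error (SE). The animal's number in the titles pairs T1 with T2. Deviations from group means correlated at 0.219 to 0.698 within animals (median 0.465), and 14 of 15 animals matched their own number best. No label names slide, scan or batch, so none was modelled. On simulated data with 200 changed genes of 2181, 35% of shifts of 0.5 and 81% of shifts of 1 were recovered, and 2.5% of calls were false. The simulated noise had no correlation within animals or between genes, so these rates may not carry over to the real data. The number of arrays limits the precision.

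Members and lists were chosen with earlier results of these data known. Genes were named by a rule: the 15 largest rises and 15 largest falls among genes that passed, the 10 clearest reversed genes each way, up to 4 passing members of each list, and the glucocorticoid receptor with its target genes, which gave 97. Other genes that passed are named where a list is counted. Alternatives were other scalings, floors, feature rules, filters, blocks and weights, and leaving out each animal or animals 28 and 32. Python 3.11.15, numpy 2.4.6, pandas 2.3.3 and matplotlib 3.10.9 prepared tables and plots.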

Additional observations from a re-analysis of the deposited data

Results flagged for a closer look

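The change between T1 and T2 differed between prednisolone and control animals in 621 of 2373 genes, by the test of the interaction itself. Among 23635 tested features without a gene name, which the comparisons above do not use, 6478 (27.4%) passed the same test, 3703 higher and 2775 lower in treated animals, a share close to that of the named genes (26.2%).

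In 12 of 194 groups of changes, over the named genes, 1 animal stood apart from the rest of its group. Chance alone sets an animal apart in about 1 in 20 groups. In prednisolone animals, HSPB8 changed by −1.83 in animal 30, where the next value was 1.92, and FOS by 0.79 in animal 32 (next 1.52). TNFAIP6 changed by −5.04 in animal 28 (next −2.24). CXCR4 and XBP1 both stood apart in animal 29, which changed least, by −0.81 (next −1.33) and −0.0058 (next −0.45). FADD changed by 0.55 in animal 26 (next −0.23). In control animals, FBP1 changed by 1.48 and MRPS26 by 0.87 in animal 18 (next 0.28 and 0.34), and VLDLR by 0.73 and EIF2B2 by 0.21 in animal 21 (next −0.08 and −0.02). SLA changed by −1.19 in animal 23 (next −0.60) and NR3C1 by 0.23 in animal 17 (next −0.26). No animal held more than 2 of the 12 values.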

How the results depend on the processing

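Leaving out animals 28 and 32 lowered the interaction's count to 389 genes (222 higher, 167 lower) and the reversed genes to 50, at 767 genes with an unadjusted p under 0.05. Every other alternative left these 4 counts within 1.5 times. Without the replicate block, in 1 unpaired fit of 30 arrays, 436 genes passed (428 of them among the 621) and 118 were reversed, 28 at the adjusted threshold at both times. With the animal as a random replicate block, 640 passed and 118 were reversed, 27 at the adjusted threshold at both times. Leaving out 1 animal gave 491 (without animal 18) to 684 (without 26) genes in all, 262 to 358 higher, 228 to 337 lower and 77 (without 32) to 128 (without 29) reversed. Over the 13 other settings with all animals, the share of calls that were higher lay between 48.5% (values as deposited) and 57.1% (brightest feature alone), against 53.8%.

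Of the 96 named genes that passed, 62 kept their direction and call under every setting in which they were tested. One changed sign: ST3GAL2 was −0.25 when all features of a gene were averaged. The cause was not tested. Calls were lost by 23 genes without the replicate block, 9 with the random replicate block (HSPB8, VLDLR, ANXA1, ZBTB16, IFNG, CD8A, NFKBIZ, BOLA-DYB and CDK4), 17 without animals 28 and 32, 13 with the brightest feature alone and 17 without some single animal. Depth of signal limits dim genes such as SPP1, CCL2, TLR5, IL15, ACVR1, ASPH, NCR1, HMMR and TNFAIP6, whose values come close to the lower limit. For TNFAIP6 the call was lost at a lower limit of 16 (−1.10, adjusted p 0.112).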
